A study of Saccharomyces cerevisiae with 12 samples.

Results

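The genes described here are 44 genes for enzymes of amino acid synthesis in the yeast *Saccharomyces cerevisiae*, chosen by their gene symbols in the annotation of the array elements and grouped by the amino acids that they serve. All 44 of 44 symbols matched, with 1 element each, among the 6024 elements of the array, of which 5432 (90.2%) have a symbol. There were 6 genes of histidine synthesis, 5 of arginine, 10 of the branched chain amino acids, 7 of lysine, 8 of the aromatic amino acids, 4 of threonine, 3 of serine, and 1 of asparagine. The study compared the response to DTT, a reducing agent that disturbs protein folding in the endoplasmic reticulum (ER), in 4 strains: Δ*ire1* (*IRE1* replaced with *TRP1*), Δ*gcn4* (*GCN4* replaced with *his5+*), Δ*gcn2* (*GCN2* replaced with *his5+*), and their WT parent. All 4 are MATa strains with mutant alleles of *URA3*, *LEU2*, *HIS3*, *TRP1*, *ADE2*, and *CAN1*, and the strain list of the study gives 1 strain for each genotype. Cells in midlog phase in YPD, a rich medium, received 2 mM DTT for 30 min or were left untreated, and mRNA of treated and untreated cells of one strain was hybridized together to spotted arrays of open reading frames, with 3 arrays for each strain.

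Each value is the deposited log2 ratio of treated over untreated cells, so that 1 stands for a ratio of 2 and −1 for a ratio of 0.5. A ratio gives a change and not a level, and it does not tell a change in every cell from a larger change in some of the cells. A gene was called higher or lower where its mean over the 3 arrays, or its difference between strains, differed from 0 at an adjusted p under 0.05 in limma, a linear model fitted to all elements of the 12 arrays, with p adjusted over the 6024 elements. In each comparison, the share of all elements called is given beside the count of the 44 genes, since many elements were called in most comparisons.

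In yeast, amino acid synthesis is under general control: when amino acids run short, uncharged tRNA activates the kinase Gcn2, which phosphorylates the initiation factor eIF2, and translation of the mRNA of *GCN4* increases. Gcn4 is a bZIP activator that binds upstream of genes in most pathways of amino acid synthesis, among them genes of all the groups here. Ire1 is the ER sensor of the unfolded protein response (UPR), which splices the mRNA of the activator Hac1. The study used the deletions to ask which of these factors the UPR needs, and the same arrays give the response of the genes that Gcn4 is best known to regulate.

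As a check of the treatment and of the Δ*ire1* label, 5 UPR genes (*KAR2*, *ERO1*, *LHS1*, *SIL1*, and *EUG1*) were all called higher in Δ*gcn4*, Δ*gcn2*, and WT. The means of the log2 ratio were 0.86 to 1.90 in Δ*gcn4* cells, 1.01 to 2.10 in Δ*gcn2* cells, and 1.89 to 2.89 in WT cells. All but *KAR2*, 4 of the 5, were called lower than in WT in both Δ*gcn4* and Δ*gcn2* (median differences of the 5, −0.99 and −0.79). In Δ*ire1* the means of the 5 genes ran between −0.18 and 0.85, 2 were called higher, and all 5 were called lower in Δ*ire1* than in WT. The arrays were not centered: the median over all elements was between −0.21 and −0.06 on each array. Its mean over the 3 arrays was −0.14 in Δ*ire1* cells, −0.16 in Δ*gcn4* cells, −0.11 in Δ*gcn2* cells, and −0.15 in WT cells. Array 3 of Δ*ire1* stood apart for several of the genes described here, and values without it are given where they matter.

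Many genes of amino acid synthesis fell after DTT in each of the 4 strains. Of the 44, 33 were called lower in Δ*ire1* cells (all elements, 35.6%), 20 in Δ*gcn4* cells (38.7%), 27 in Δ*gcn2* cells (37.8%), and 29 in WT cells (39.0%). These are 75.0% of the 44 in Δ*ire1* cells, 45.5% in Δ*gcn4* cells, 61.4% in Δ*gcn2* cells, and 65.9% in WT cells, so that the share in Δ*gcn4* was near that of all elements. Few were called higher: 1 in Δ*ire1* cells (12.2% of all elements), 1 in Δ*gcn4* cells (15.8%), 1 in Δ*gcn2* cells (25.2%), and 2 in WT cells (18.4%). The median of the 44 means was −0.47 in Δ*ire1* cells, −0.27 in Δ*gcn4* cells, −0.39 in Δ*gcn2* cells, and −0.56 in WT cells, against medians of the 6024 means of −0.14 in Δ*ire1* cells, −0.16 in Δ*gcn4* cells, −0.11 in Δ*gcn2* cells, and −0.15 in WT cells. With each array centered on its median, 23 genes were lower and 1 higher in Δ*ire1* cells (all elements, 23.2% and 21.9%), 12 lower and 4 higher in Δ*gcn4* cells (26.4% and 25.6%), 21 lower and 2 higher in Δ*gcn2* cells (30.8% and 31.7%), and 26 lower and 2 higher in WT cells (28.4% and 27.6%). Among the 4 strains, it was in Δ*gcn4* that the share of lower genes among those called moved by more than 10 percentage points with centering, with 75.0% for centered arrays and 95.2% as deposited.

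On every array the median of the 44 genes lay below 0 and below the median of all elements, but by amounts that varied. On the 3 arrays of Δ*gcn4* the gap to the median of all elements was small, at −0.11, −0.05, and −0.18. The median of the 44 genes was −0.63, −0.51, and −0.34 on the arrays of Δ*ire1*, −0.25, −0.25, and −0.33 on those of Δ*gcn4*, −0.37, −0.36, and −0.32 on those of Δ*gcn2*, and −0.50, −0.56, and −0.56 on those of WT. The 3 medians of WT were below all 3 of Δ*gcn4* and all 3 of Δ*gcn2*, and those of Δ*ire1* overlapped those of WT and of Δ*gcn2*. Of the 44 genes, 32 to 39 lay below the median of their array in Δ*ire1*, 26 to 27 in Δ*gcn4* cells, 34 to 36 in Δ*gcn2* cells, and 32 to 36 in WT cells. The plot of the 44 genes on each array shows these medians against those of all elements.

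**Figure D1:**
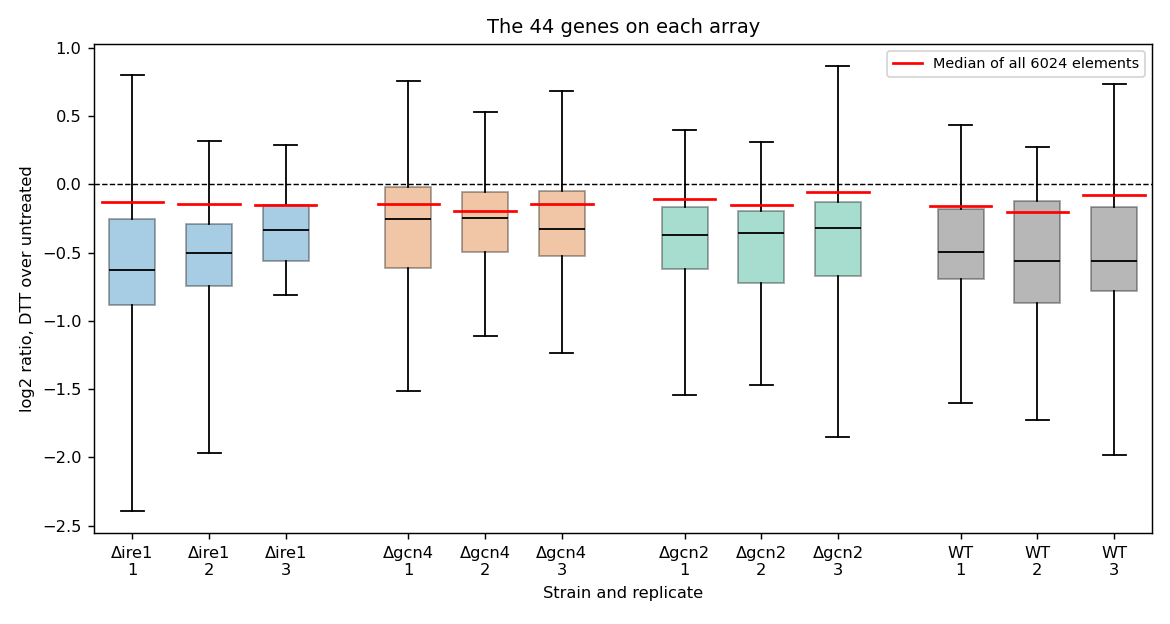
The 44 genes on each of the 12 arrays: log2 ratio, DTT over untreated (y axis) by strain and replicate (x axis). Boxes hold the middle of the genes with the median as a black line, whiskers reach the lowest and the highest gene, and the red line is the median of all 6024 elements; the black line lies below the red line on all 12 arrays, by least on array 2 of Δ*gcn4*, where the medians are −0.25 and −0.19.

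Between strains, a count of genes shows where the falls were shared. A set of 15 genes was called lower in all 4 strains with arrays as deposited: *HIS1*, *HIS7*, *ARG3*, *CPA1*, *LEU1*, *LEU9*, *ILV2*, *ILV3*, *ILV5*, *LYS4*, *LYS12*, *TRP4*, *ARO3*, *ARO4*, and *ASN1*. With centered arrays, *HIS7*, *CPA1*, and *ILV2* lost their call in Δ*ire1*, and *HIS7*, *LEU9*, and *LYS12* lost theirs in Δ*gcn4*. Another 7 were called lower in Δ*ire1*, Δ*gcn2*, and WT but not in Δ*gcn4*, where their means lay between −0.27 (*ARO1*) and −0.09 (*HIS3*), and 4 were called lower in Δ*ire1* only. With centered arrays, *HOM3* alone among these 7 kept its calls in Δ*ire1*, Δ*gcn2*, and WT. Of the 4, *LYS2*, *TRP3*, and *THR1* lost their call in Δ*ire1*. Calls and counts of single genes and pathways below are for arrays as deposited, unless stated. *TRP5*, *SER3*, and *SER33* were called in no strain. In single strains, 35.6% (Δ*ire1*) to 39.0% (WT) of all elements were called lower. The share of all elements with the same patterns over the strains was not computed, so whether these counts are unusual was not tested. A gene called in one strain and not in another is not thereby different between them, and the differences were tested directly.

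Few of the differences between strains passed the test. In Δ*ire1* against WT, 3 genes were higher (10.9% of all elements) and 2 were lower (11.3%), with a median difference of −0.07 (all elements, 0.03). Without array 3 of Δ*ire1*, 5 genes were lower (*HIS1*, *HIS4*, *ARG1*, *ILV6*, and *THR4*; all elements in that fit, 12.4%) and 3 were higher (11.9%). In Δ*gcn4* against WT, 2 genes were higher (0.863% of all elements) and 0 were lower (1.94%), with a median difference of 0.19 (all elements, 0.01). At an unadjusted p under 0.05, 7 genes were higher and 1 was lower in that comparison (all elements, 7.87% and 7.95%). In Δ*gcn2* against WT, 4 genes were higher (10.9% of all elements) and 2 were lower (6.24%), with a median difference of 0.09 (all elements, 0.06). In Δ*gcn4* against Δ*gcn2*, 2 genes were higher (1.88% of all elements) and 0 were lower (4.45%; at an unadjusted p, 10 and 1, beside 7.92% and 15.7% of all elements), with a median difference of 0.10 (all elements, −0.06). With centered arrays, each against WT, the counts were 3 higher and 1 lower for Δ*ire1* (all elements, 11.2% and 11.7%), 2 and 0 for Δ*gcn4* (0.930% and 1.91%), and 3 and 3 for Δ*gcn2* (8.81% and 7.65%). The 3 comparisons with WT share the arrays of WT, and so are not independent of each other.

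Most differences lay within the spread between arrays. The 3 arrays of Δ*ire1* were all above the 3 of WT for 6 of the 44 genes (18.7% of all elements) and all below for 7 (17.2%). For Δ*gcn4* against WT, the arrays were all above for 11 genes (10.2%) and all below for 1 (9.94%). For Δ*gcn2* against WT, they were all above for 10 (24.5%) and all below for 5 (15.4%). For Δ*gcn4* against Δ*gcn2*, the counts were 14 above (11.2%) and 3 below (20.2%). Of the 4 strains, the mean was highest in Δ*gcn4* for 23 of the 44 genes, in Δ*gcn2* for 10, in Δ*ire1* for 7, and in WT for 4, and it was lowest in Δ*ire1* for 18, in WT for 15, in Δ*gcn2* for 9, and in Δ*gcn4* for 2. This ranking was not computed over all elements, so whether its counts are unusual was not tested.

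The arrays of Δ*gcn2* and WT with the same replicate number varied together over all elements (correlations of 0.574, 0.625, and 0.661), which no other pair of strains did throughout. A paired fit of these 6 arrays alone, with the replicate number as a block, called 15 of the 44 genes higher in Δ*gcn2* than in WT and 9 lower, or 34.1% and 20.5%, beside 30.5% and 19.8% of all elements. The 6 genes called in the fit of all 12 arrays were among these 24. The others were called by the paired fit but not by the fit of all 12 arrays as deposited. Of these, *HIS5*, *ARG1*, *ARG3*, *LEU1*, *LEU2*, *LYS1*, *LYS21*, *ARO2*, *SER1*, *SER3*, and *ASN1* were higher in Δ*gcn2*, and *HIS4*, *ILV2*, *LYS9*, *LYS12*, *LYS20*, *ARO4*, and *THR4* were lower. The paired fit has 2 residual degrees of freedom and put the same variance on every element, and its p-values rest on that common variance.

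**Figure D2:**
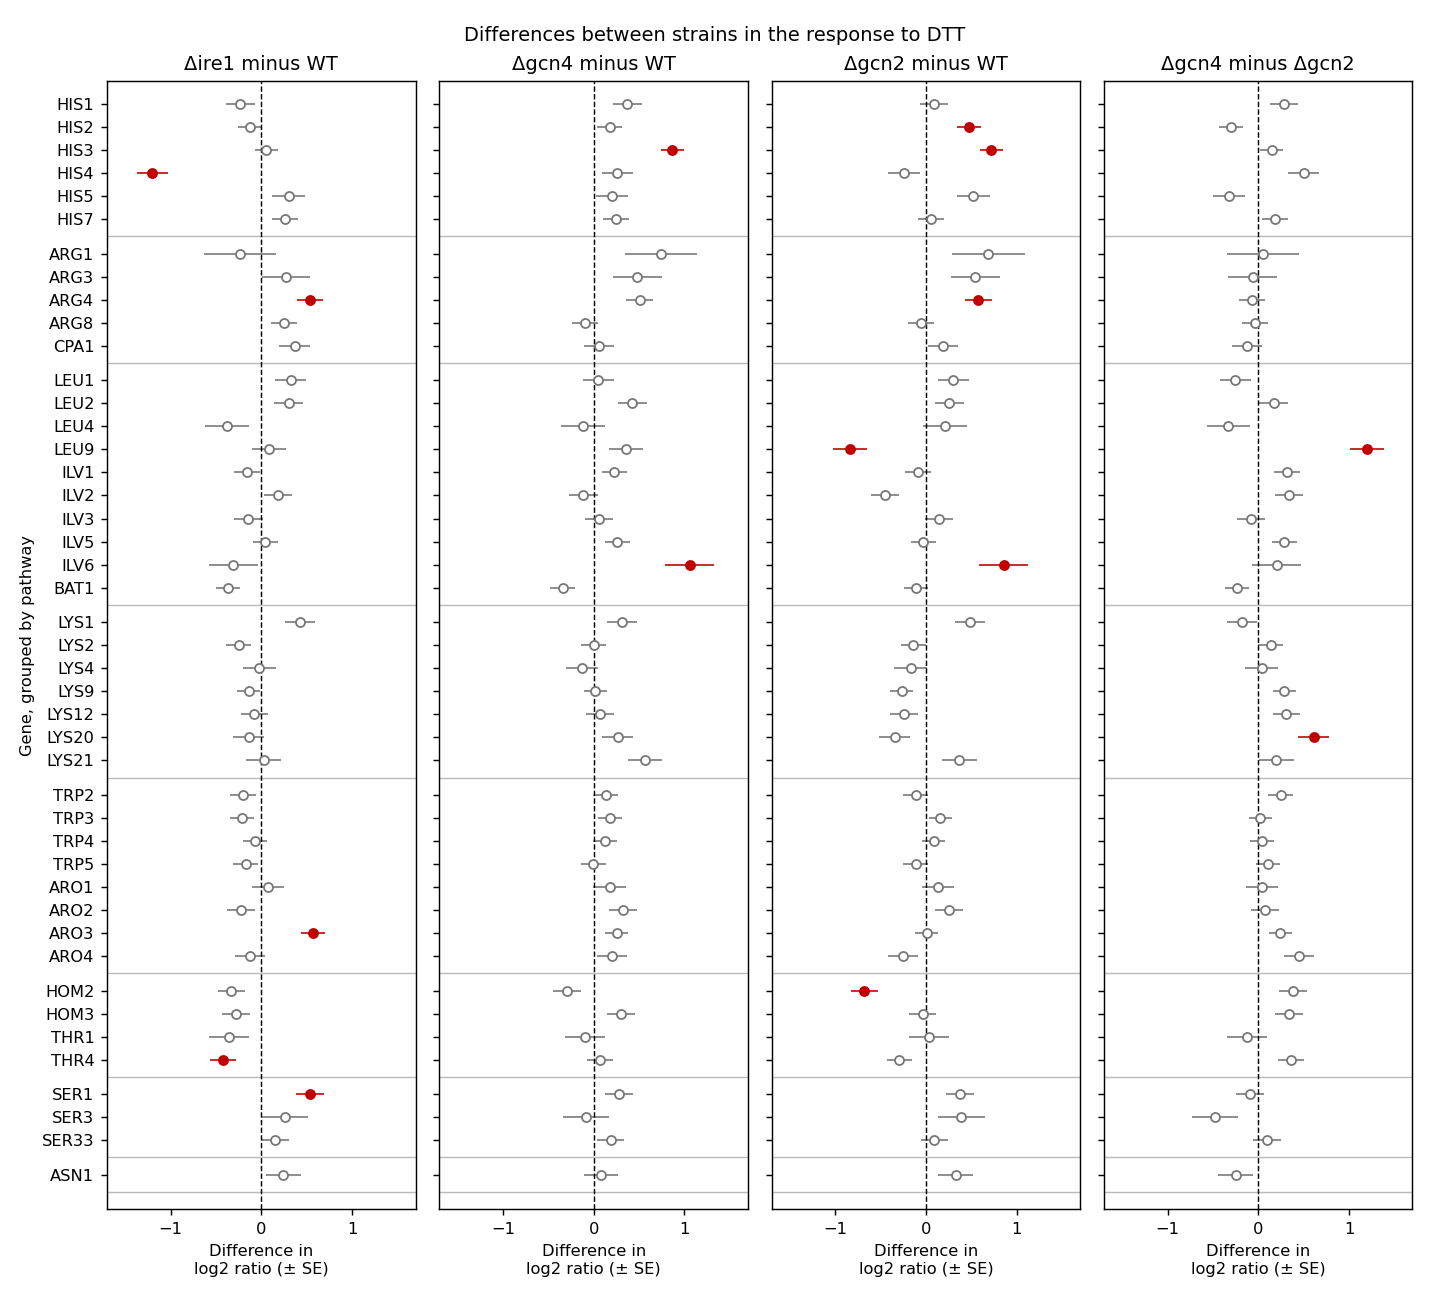
Difference between strains in the response to DTT as log2 ratio (x axis, estimate ± SE from the linear model) for the 44 genes (y axis, grouped by pathway), in 4 panels: Δ*ire1* minus WT, Δ*gcn4* minus WT, Δ*gcn2* minus WT, and Δ*gcn4* minus Δ*gcn2*. Filled red circles passed an adjusted p of 0.05 (5, 2, 6, and 2 genes from left to right), and open gray circles did not.

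Beside the counts of each pathway below, the shares of all elements called lower were 35.6% in Δ*ire1* cells, 38.7% in Δ*gcn4* cells, 37.8% in Δ*gcn2* cells, and 39.0% in WT cells. In histidine synthesis, 4 of 6 genes were lower in Δ*ire1* cells, 3 in Δ*gcn4* cells, 3 in Δ*gcn2* cells, and 4 in WT cells, and the genes that differed most between strains were *HIS4* and *HIS3*. *HIS4* (YCL030C) encodes an enzyme that carries several activities of the pathway and is a classic target of Gcn4.

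The log2 ratios of *HIS4* were −1.02, −0.85, and −0.56 in Δ*ire1* cells, 0.75, 0.53, and 0.68 in Δ*gcn4* cells, 0.34, −0.06, and 0.18 in Δ*gcn2* cells, and 0.25, 0.19, and 0.74 in WT cells. It fell on all arrays of Δ*ire1* and was above 0 on all arrays of Δ*gcn4* and WT, with no overlap between Δ*ire1* and any other strain. The mean was −0.81 ± 0.23 in Δ*ire1* cells and 0.39 ± 0.30 in WT cells (SD, n = 3 arrays each), a difference of −1.20 ± 0.17 (SE; adjusted p = 0.000218), the largest of the 44 genes between Δ*ire1* and WT. The call held without any 1 of the 6 arrays, at adjusted p-values of 0.00017 to 0.00158. In Δ*gcn4* *HIS4* was higher after DTT, with a mean of 0.66 ± 0.11 (adjusted p = 0.000312). Its rise in WT (adjusted p = 0.0117) lost its call without array 3 (mean 0.22, adjusted p = 0.181). In Δ*gcn2* the mean was 0.15 ± 0.20, which did not pass the test, and neither Δ*gcn4* (difference 0.26 ± 0.17) nor Δ*gcn2* (−0.24 ± 0.17) passed it against WT. The paired fit called *HIS4* lower in Δ*gcn2* cells (adjusted p = 0.0435), a p that rests on the variance common to all elements. Array 1 went the other way, with 0.34 in Δ*gcn2* cells and 0.25 in WT cells.

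*HIS3* (YOR202W), the gene of imidazoleglycerol-phosphate dehydratase, is mutant in all 4 strains. Its log2 ratios were −0.98, −0.93, and −0.81 in Δ*ire1* cells, −0.15, −0.11, and −0.02 in Δ*gcn4* cells, −0.10, −0.30, and −0.33 in Δ*gcn2* cells, and −1.00, −0.81, and −1.07 in WT cells. In Δ*ire1* and WT the arrays lay together, and all arrays of Δ*gcn4* and Δ*gcn2* lay above them. The difference from WT was 0.87 ± 0.13 in Δ*gcn4* cells (adjusted p = 0.000942) and 0.72 ± 0.13 in Δ*gcn2* cells (adjusted p = 0.00249), and both calls held without any 1 array. Between Δ*gcn4* and Δ*gcn2* the difference of 0.15 ± 0.13 did not pass the test, nor did that of 0.06 ± 0.13 between Δ*ire1* and WT. Both strains in which *HIS3* differed from WT carry *his5+*, a marker that complements mutant *his3*, so that marker and deletion cannot be told apart here.

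The other genes of the group were *HIS1*, *HIS2*, *HIS5*, and *HIS7*. *HIS2*, which encodes histidinol-phosphatase, had log2 ratios of 0.01, −0.24, and −0.39 in Δ*ire1* cells, 0.15, −0.06, and 0.19 in Δ*gcn4* cells, 0.40, 0.31, and 0.48 in Δ*gcn2* cells, and −0.13, −0.01, and −0.10 in WT cells. All 3 arrays of Δ*gcn2* were above those of every other strain, and the difference from WT was 0.48 ± 0.14 (adjusted p = 0.0258). That call ended without any 1 of 5 of the 6 arrays, at adjusted p-values of up to 0.0996. *HIS1*, which encodes the ATP phosphoribosyltransferase of the first step, was lower in every strain, with means of −1.14 for Δ*ire1*, −0.54 for Δ*gcn4*, −0.82 for Δ*gcn2*, and −0.91 for WT. *HIS7*, which encodes the glutamine amidotransferase of the pathway, was lower in every strain as well (−0.28 for Δ*ire1*, −0.30 for Δ*gcn4*, −0.49 for Δ*gcn2*, and −0.54 for WT). *HIS5*, which encodes histidinol-phosphate aminotransferase, was called lower in Δ*gcn4* and WT, and its means were −0.27 for Δ*ire1*, −0.37 for Δ*gcn4*, −0.05 for Δ*gcn2*, and −0.58 for WT.

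In arginine synthesis, *ARG3* fell more in WT than any other of the 44 genes, and *ARG4* fell less in 2 of the deletion strains. Of the 5 genes, 3 were lower and 1 higher in Δ*ire1* cells, 3 were lower in Δ*gcn4* cells, 2 in Δ*gcn2* cells, and 4 in WT cells. *ARG3* (YJL088W) encodes ornithine carbamoyltransferase. Its log2 ratios were −1.89, −1.97, and −0.63 in Δ*ire1* cells, −1.51, −1.11, and −1.24 in Δ*gcn4* cells, −1.11, −1.09, and −1.47 in Δ*gcn2* cells, and −1.60, −1.73, and −1.98 in WT cells. It was below 0 on all 12 arrays with the lowest mean in WT, but array 3 of Δ*ire1* stood far above the other arrays of that strain. The means were −1.50 ± 0.75 in Δ*ire1* cells, −1.29 ± 0.21 in Δ*gcn4* cells, −1.23 ± 0.21 in Δ*gcn2* cells, and −1.77 ± 0.19 in WT cells (SD, n = 3), each called lower (adjusted p = 1.55e-05 in Δ*ire1* cells, 4.02e-05 in Δ*gcn4* cells, 4.09e-05 in Δ*gcn2* cells, and 1.35e-06 in WT cells). All arrays of Δ*gcn4* and Δ*gcn2* were above those of WT, but the differences of 0.48 ± 0.27 (adjusted p = 0.401) and 0.54 ± 0.27 (adjusted p = 0.171) did not pass the test. The paired fit called that of Δ*gcn2* (adjusted p = 1.49e-06, from the variance common to all elements and not that of *ARG3*).

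*ARG1* (YOL058W) encodes argininosuccinate synthetase, which acts after *ARG3*. Its log2 ratios were −2.39, −1.69, and −0.03 in Δ*ire1* cells, −0.57, −0.06, and −0.56 in Δ*gcn4* cells, −0.20, −0.35, and −0.80 in Δ*gcn2* cells, and −0.87, −1.23, and −1.31 in WT cells. The arrays of Δ*ire1* ran from a strong fall to no change, and those of Δ*gcn4* and Δ*gcn2* were all above those of WT. *ARG1* was called lower in Δ*ire1* cells (−1.37 ± 1.21, adjusted p = 0.000973) and WT (−1.14 ± 0.23, adjusted p = 0.00291), but not in Δ*gcn4* (−0.40 ± 0.29) or Δ*gcn2* (−0.45 ± 0.31). The differences of 0.74 ± 0.40 in Δ*gcn4* cells and 0.69 ± 0.40 in Δ*gcn2* from WT had adjusted p-values of 0.386 and 0.251. That of Δ*gcn2* was called in the paired fit (adjusted p = 8.14e-10, from the variance common to all elements and not that of *ARG1*). Without array 3 of Δ*ire1*, the fall of *ARG1* in Δ*ire1* relative to WT was called, with a difference of −0.90 (adjusted p = 0.0131), against −0.23 ± 0.40 with all arrays.

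*ARG4* (YHR018C), the gene of argininosuccinate lyase, which makes arginine in the last step, had log2 ratios of −0.22, −0.37, and −0.12 in Δ*ire1* cells, −0.02, −0.46, and −0.32 in Δ*gcn4* cells, −0.23, −0.25, and −0.11 in Δ*gcn2* cells, and −0.69, −0.97, and −0.67 in WT cells. All arrays of the 3 deletion strains were above those of WT. The difference from WT was 0.53 ± 0.15 in Δ*ire1* cells (adjusted p = 0.0163), 0.51 ± 0.15 in Δ*gcn4* cells (adjusted p = 0.0837, not called), and 0.58 ± 0.15 in Δ*gcn2* cells (adjusted p = 0.0154). The call in Δ*ire1* ended without array 2 of WT (0.44, adjusted p = 0.0745), and that in Δ*gcn2* without array 2 of WT (0.48, adjusted p = 0.0572) or array 3 of Δ*gcn2* (0.54, adjusted p = 0.0666). *ARG8*, the gene of acetylornithine aminotransferase, had log2 ratios of 0.19, 0.32, and 0.29 in Δ*ire1* cells, −0.22, 0.11, and −0.13 in Δ*gcn4* cells, −0.12, 0.19, and −0.20 in Δ*gcn2* cells, and 0.04, 0.10, and −0.10 in WT cells. Its arrays in Δ*ire1* were all above 0 and above those of Δ*gcn4* and WT, while array 2 of Δ*gcn2* lay among them, and it was the only one of the 44 genes called higher there (adjusted p = 0.038), a call that ended without any 1 of the 3 arrays (adjusted p = 0.0685 to 0.15). *CPA1*, the small subunit of the carbamoyl phosphate synthetase for arginine, was lower in every strain, with means of −0.41 for Δ*ire1*, −0.71 for Δ*gcn4*, −0.59 for Δ*gcn2*, and −0.77 for WT.

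In the branched chain group, the largest, 10 of 10 genes were called lower in Δ*ire1* cells (beside 35.6% of all elements). The counts were 6 in Δ*gcn4* cells (60.0%, beside 38.7%), 7 in Δ*gcn2* cells (70.0%, beside 37.8%), and 8 in WT cells (80.0%, beside 39.0%), and none was called higher. With centered arrays, 7 were lower in Δ*ire1* cells (beside 23.2% of all elements) and 4 in Δ*gcn4* cells (26.4%). The counts were then 6 in Δ*gcn2* cells (30.8%) and 7 in WT cells (28.4%). *ILV6* (YCL009C), the regulatory subunit of acetolactate synthase, was called lower in neither Δ*gcn4* nor Δ*gcn2*. Its log2 ratios were −1.84, −1.53, and −0.55 in Δ*ire1* cells, −0.29, 0.24, and 0.23 in Δ*gcn4* cells, −0.24, 0.14, and −0.33 in Δ*gcn2* cells, and −1.28, −0.71, and −1.01 in WT cells. All arrays of Δ*gcn4* and Δ*gcn2* were above all arrays of WT, while array 3 of Δ*ire1* was above the other arrays of Δ*ire1* and above those of WT. The difference from WT was 1.06 ± 0.27 in Δ*gcn4* cells (adjusted p = 0.0455) and 0.86 ± 0.27 in Δ*gcn2* cells (adjusted p = 0.0411). Both calls were weak: the first ended without any 1 of 4 of the 6 arrays and the second without any 1 of 5, at adjusted p-values of up to 0.192 and 0.158. In Δ*ire1* the mean was −1.31 ± 0.68, against −1.00 ± 0.28 in WT cells, and the difference was called only without array 3 of Δ*ire1* (−0.69, adjusted p = 0.0285). *ILV2*, the catalytic subunit of the same enzyme, was lower in all strains, with means of −0.43 for Δ*ire1*, −0.73 for Δ*gcn4*, −1.07 for Δ*gcn2*, and −0.62 for WT.

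*LEU9* (YOR108W) and *LEU4* encode the alternative forms of α-isopropylmalate synthase, which starts leucine synthesis. The log2 ratios of *LEU9* were −0.81, −0.60, and −0.69 in Δ*ire1* cells, −0.15, −0.31, and −0.81 in Δ*gcn4* cells, −1.54, −1.47, and −1.85 in Δ*gcn2* cells, and −0.45, −0.87, and −1.04 in WT cells. Those of Δ*gcn2* were below all others, with a mean of −1.62 ± 0.20, the lowest value of the 44 genes in that strain. The difference was −0.84 ± 0.19 from WT (adjusted p = 0.00888), and Δ*gcn4* was higher than Δ*gcn2* by 1.20 ± 0.19 (adjusted p = 0.00556). The difference from Δ*gcn4* held without any 1 array, and that from WT ended without array 1 of WT (−0.67, adjusted p = 0.0516) or array 3 of Δ*gcn2* (−0.72, adjusted p = 0.0503). *LEU4* had means of −0.67 for Δ*ire1*, −0.41 for Δ*gcn4*, −0.08 for Δ*gcn2*, and −0.29 for WT and was called lower in Δ*ire1* only. Its array 1 of Δ*gcn4* (−1.17) lay far below the other arrays of Δ*gcn4* (0.02 and −0.07). On spots of whole open reading frames, transcripts of *LEU4* and *LEU9* may bind both elements, which was not tested.

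*LEU2* (YCL018W), the gene of β-isopropylmalate dehydrogenase, is mutant in all 4 strains. Its log2 ratios were −0.49, −0.35, and −0.14 in Δ*ire1* cells, −0.52, −0.04, and −0.04 in Δ*gcn4* cells, −0.59, −0.23, and −0.30 in Δ*gcn2* cells, and −0.57, −0.70, and −0.62 in WT cells. Of the arrays of Δ*ire1*, Δ*gcn4*, and Δ*gcn2*, only array 1 of Δ*gcn2* lay within the range of WT, and the rest were above it. *LEU2* was called lower in Δ*ire1*, Δ*gcn2*, and WT, and no difference from WT passed the test in the fit of all 12 arrays (0.30 ± 0.16, 0.43 ± 0.16, and 0.26 ± 0.16 in Δ*ire1*, Δ*gcn4*, and Δ*gcn2*). *LEU1*, which encodes isopropylmalate isomerase, had log2 ratios of −0.64, −0.39, and −0.58 in Δ*ire1* cells, −0.65, −0.81, and −0.97 in Δ*gcn4* cells, −0.44, −0.91, and −0.33 in Δ*gcn2* cells, and −0.80, −1.14, and −0.64 in WT cells. It was below 0 on all 12 arrays, those of Δ*ire1* were all above those of Δ*gcn4* and WT, and those of Δ*gcn2* overlapped all other strains. *ILV3*, the gene of dihydroxyacid dehydratase, had log2 ratios of −1.31, −0.83, and −0.77 in Δ*ire1* cells, −1.00, −0.68, and −0.62 in Δ*gcn4* cells, −0.62, −0.74, and −0.70 in Δ*gcn2* cells, and −0.76, −0.80, and −0.92 in WT cells. It too was below 0 on all 12 arrays, with those of Δ*gcn2* all above those of Δ*ire1* and WT and those of Δ*gcn4* overlapping the rest, and no difference between strains was called for either gene in the fit of all 12 arrays.

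The remaining genes of the group were *ILV5* (acetohydroxyacid reductoisomerase), *ILV1* (threonine deaminase), and *BAT1* (the mitochondrial aminotransferase). *ILV5* was lower in every strain, with means of −0.70 for Δ*ire1*, −0.48 for Δ*gcn4*, −0.77 for Δ*gcn2*, and −0.74 for WT. *ILV1* was called lower except in Δ*gcn4* (−0.50 for Δ*ire1*, −0.11 for Δ*gcn4*, −0.43 for Δ*gcn2*, and −0.34 for WT), and *BAT1* was called lower in Δ*ire1* and Δ*gcn4* (−0.31 for Δ*ire1*, −0.29 for Δ*gcn4*, −0.05 for Δ*gcn2*, and 0.06 for WT). Leu3 is the regulator of leucine synthesis, and of its 6 targets in this group (*LEU1*, *LEU2*, *LEU4*, *ILV2*, *ILV5*, and *BAT1*), 6 were lower in Δ*ire1* cells, 4 in Δ*gcn4* cells, 4 in Δ*gcn2* cells, and 4 in WT cells, and none differed from WT in any deletion strain in the fit of all arrays as deposited. With centered arrays, 3 of these 6 were lower in Δ*ire1* cells (beside 23.2% of all elements), 3 in Δ*gcn4* cells (26.4%), 3 in Δ*gcn2* cells (30.8%), and 4 in WT cells (28.4%). The difference of *ILV2* between Δ*gcn2* and WT then passed the test (−0.49, adjusted p = 0.0483), and the paired fit called *ILV2* lower and *LEU1* and *LEU2* higher there.

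**Figure D3:**
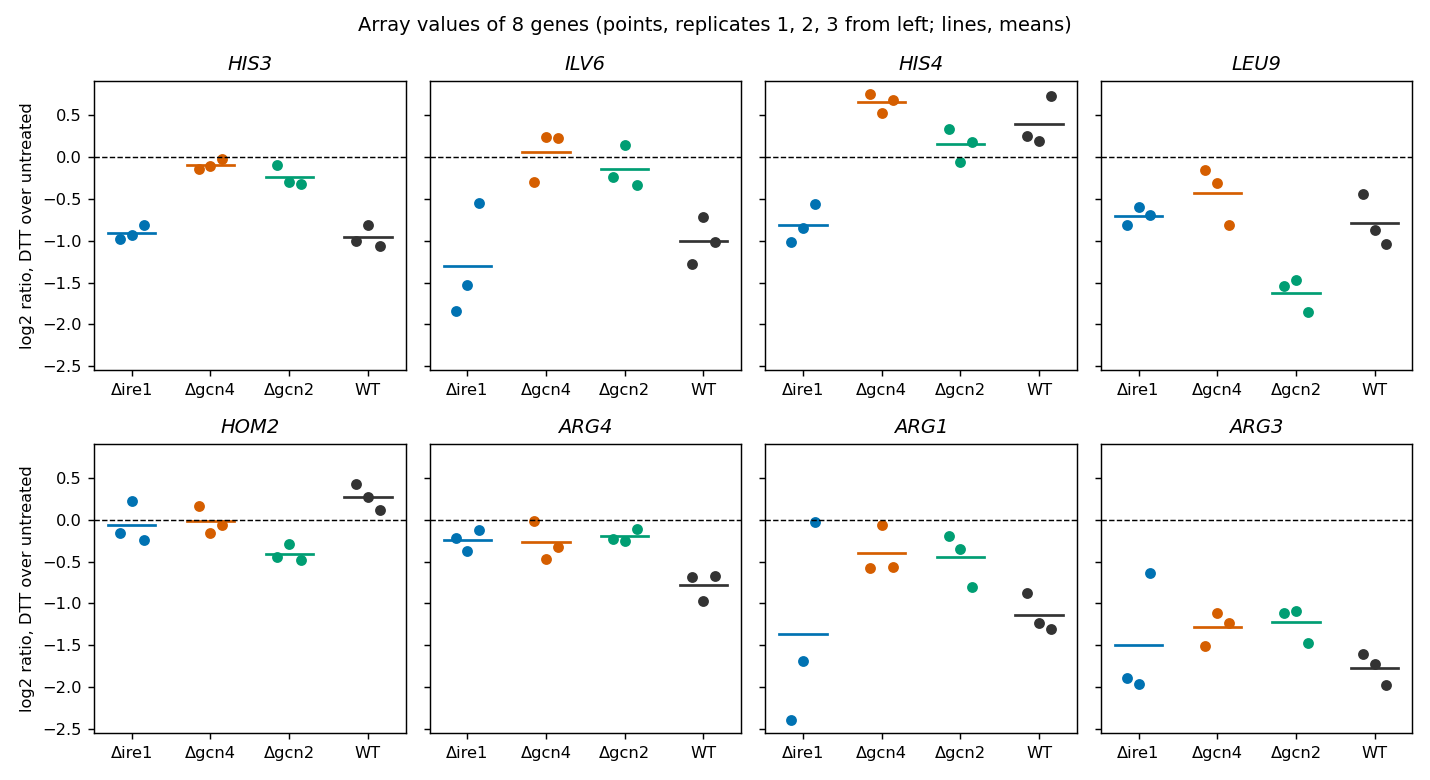
Response to DTT as the log2 ratio over untreated cells (y axis) for 8 genes on each array, by strain (x axis). Points are replicates 1, 2, and 3 from left to right and lines are means; *HIS3* and *ILV6* lie higher in Δ*gcn4* and Δ*gcn2* than in WT, *HIS4* lies lower in Δ*ire1* cells, *LEU9* and *HOM2* lie lower in Δ*gcn2* cells, *ARG4* lies lowest in WT, and array 3 of Δ*ire1* lies above the others of that strain for *ILV6*, *ARG1*, and *ARG3*.

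In lysine synthesis, 5 of 7 genes were called lower in Δ*ire1* cells, 3 in Δ*gcn4* cells, 4 in Δ*gcn2* cells, and 4 in WT cells, and none higher. The 7 were also listed as targets of Lys14, the activator of the pathway. *LYS20* and *LYS21* encode the homocitrate synthases, which make the entry into the pathway. The log2 ratios of *LYS20* (YDL182W) were −0.39, −0.39, and −0.31 in Δ*ire1* cells, −0.23, 0.28, and 0.08 in Δ*gcn4* cells, −0.54, −0.51, and −0.66 in Δ*gcn2* cells, and 0.06, −0.13, and −0.60 in WT cells. The arrays of Δ*gcn4* were above all those of Δ*gcn2*, and those of WT were spread over the range of both. The difference of 0.61 ± 0.17 between Δ*gcn4* and Δ*gcn2* passed the test (adjusted p = 0.0446), but not without any 1 of 5 of the 6 arrays (adjusted p up to 0.174). *LYS21*, the other of the pair, had log2 ratios of −0.80, −0.85, and −0.22 in Δ*ire1* cells, 0.04, −0.11, and −0.18 in Δ*gcn4* cells, −0.57, −0.12, and −0.16 in Δ*gcn2* cells, and −0.90, −0.33, and −0.72 in WT cells. All arrays of Δ*gcn4* were above those of WT, and the difference of 0.57 ± 0.19 did not pass the test (adjusted p = 0.149). Cross-binding of the transcripts of this pair was not tested.

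Among the other genes of lysine, *LYS4* (homoaconitase) and *LYS12* (homoisocitrate dehydrogenase) were lower in every strain. The means of *LYS4* were −0.62 for Δ*ire1*, −0.73 for Δ*gcn4*, −0.77 for Δ*gcn2*, and −0.60 for WT. Those of *LYS12* were −0.50 for Δ*ire1*, −0.36 for Δ*gcn4*, −0.67 for Δ*gcn2*, and −0.43 for WT. *LYS1*, one of the saccharopine dehydrogenases that end the pathway, was called lower in Δ*gcn4* and WT (−0.23 for Δ*ire1*, −0.35 for Δ*gcn4*, −0.17 for Δ*gcn2*, and −0.66 for WT). *LYS2* (α-aminoadipate reductase) was called lower in Δ*ire1* only (−0.28 for Δ*ire1*, −0.03 for Δ*gcn4*, −0.17 for Δ*gcn2*, and −0.03 for WT), and *LYS9*, the other saccharopine dehydrogenase, in Δ*gcn2* only (−0.15 for Δ*ire1*, 0.01 for Δ*gcn4*, −0.28 for Δ*gcn2*, and −0.01 for WT).

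In the aromatic group, 7 of 8 genes were called lower in Δ*ire1* cells, 3 in Δ*gcn4* cells, 6 in Δ*gcn2* cells, and 6 in WT cells. *ARO3* and *ARO4* encode the DAHP synthases that start the shikimate pathway. The log2 ratios of *ARO3* (YDR035W) were −0.42, −0.24, and −0.60 in Δ*ire1* cells, −0.75, −0.79, and −0.68 in Δ*gcn4* cells, −0.93, −1.10, and −0.92 in Δ*gcn2* cells, and −0.97, −1.05, and −0.96 in WT cells. Arrays of Δ*gcn2* and WT lay close together, and those of Δ*ire1* were all above them. The mean was −0.42 ± 0.18 in Δ*ire1* cells, against −0.99 ± 0.05 in WT cells, a difference of 0.57 ± 0.13 (adjusted p = 0.00575) that held without any 1 array (adjusted p = 0.00328 to 0.0316). *ARO4* (YBR249C) had log2 ratios of −1.21, −0.91, and −0.77 in Δ*ire1* cells, −0.57, −0.38, and −0.97 in Δ*gcn4* cells, −1.06, −0.98, and −1.23 in Δ*gcn2* cells, and −0.69, −0.90, and −0.93 in WT cells. It was lower in every strain (means of −0.96 for Δ*ire1*, −0.64 for Δ*gcn4*, −1.09 for Δ*gcn2*, and −0.84 for WT), the arrays of Δ*gcn2* were all below those of Δ*gcn4* and WT, and no difference was called in the fit of all 12 arrays.

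*ARO2*, the gene of chorismate synthase, had log2 ratios of −1.00, −0.85, and −0.45 in Δ*ire1* cells, −0.17, −0.24, and −0.22 in Δ*gcn4* cells, −0.44, −0.30, and −0.13 in Δ*gcn2* cells, and −0.49, −0.41, and −0.72 in WT cells. All arrays of Δ*gcn4* were above those of WT and of Δ*ire1*, but the difference of 0.33 ± 0.15 from WT did not pass the test (adjusted p = 0.316). *ARO1*, the gene of the pentafunctional enzyme of the middle of the pathway, was called lower except in Δ*gcn4* (−0.37 for Δ*ire1*, −0.27 for Δ*gcn4*, −0.31 for Δ*gcn2*, and −0.45 for WT). Of the tryptophan branch, *TRP4* (anthranilate phosphoribosyltransferase) was lower in every strain (−0.75 for Δ*ire1*, −0.55 for Δ*gcn4*, −0.59 for Δ*gcn2*, and −0.68 for WT). *TRP2* (anthranilate synthase) was called lower except in Δ*gcn4* (−0.56 for Δ*ire1*, −0.22 for Δ*gcn4*, −0.47 for Δ*gcn2*, and −0.36 for WT), and its partner *TRP3* was called lower in Δ*ire1* only (−0.32 for Δ*ire1*, 0.07 for Δ*gcn4*, 0.05 for Δ*gcn2*, and −0.11 for WT). *TRP5* (tryptophan synthase) was called in no strain (−0.10 for Δ*ire1*, 0.07 for Δ*gcn4*, −0.04 for Δ*gcn2*, and 0.08 for WT). Relative to the median of each array, *TRP3* (0.23, adjusted p = 0.036) and *TRP5* (0.23, adjusted p = 0.0467) were called higher in Δ*gcn4* cells, as was *HIS2* (0.26, adjusted p = 0.0314).

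In the threonine group, none of 4 genes was called in Δ*gcn4*, while 3 were lower in Δ*ire1* cells, 3 in Δ*gcn2* cells, and 1 in WT cells. *HOM2* (YDR158W), the gene of aspartic β-semialdehyde dehydrogenase, was the only one of the 44 called lower in Δ*gcn2* cells and higher in WT cells. Its log2 ratios were −0.15, 0.22, and −0.24 in Δ*ire1* cells, 0.16, −0.15, and −0.07 in Δ*gcn4* cells, −0.44, −0.29, and −0.48 in Δ*gcn2* cells, and 0.43, 0.27, and 0.12 in WT cells. Every array of Δ*gcn2* was below 0 and those of WT all above 0. The mean was −0.40 ± 0.10 in Δ*gcn2* cells and 0.27 ± 0.16 in WT cells, a difference of −0.68 ± 0.15 (adjusted p = 0.00861) that held without any 1 array (adjusted p = 0.0108 to 0.0476). The rise in WT itself (adjusted p = 0.0388) ended without array 1 (0.20, adjusted p = 0.233) or array 2 (0.28, adjusted p = 0.107) and with WT alone in the fit (adjusted p = 0.0594), and the fall in Δ*gcn2* lost its call with arrays centered and scaled (−0.26, adjusted p = 0.0783). *THR4* (YCR053W), the gene of threonine synthase, had log2 ratios of −0.64, −0.64, and −0.48 in Δ*ire1* cells, 0.05, −0.25, and −0.09 in Δ*gcn4* cells, −0.54, −0.26, and −0.57 in Δ*gcn2* cells, and −0.18, 0.02, and −0.35 in WT cells. All arrays of Δ*ire1* were below those of WT, with a difference of −0.42 ± 0.14 (adjusted p = 0.0473). This call ended without any 1 of 4 of the 6 arrays (adjusted p up to 0.173) and with centered arrays (adjusted p = 0.0589).

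*HOM3*, the gene of aspartate kinase, which opens the pathway of threonine and methionine, had log2 ratios of −0.91, −0.78, and −0.71 in Δ*ire1* cells, −0.01, −0.28, and −0.37 in Δ*gcn4* cells, −0.70, −0.54, and −0.44 in Δ*gcn2* cells, and −0.71, −0.24, and −0.63 in WT cells. It was below 0 on all 12 arrays with the lowest mean in Δ*ire1*. It was called lower except in Δ*gcn4*, and the difference of 0.30 ± 0.15 between Δ*gcn4* and WT did not pass the test. *THR1* (homoserine kinase) was called lower in Δ*ire1* only (−0.44 for Δ*ire1*, −0.18 for Δ*gcn4*, −0.05 for Δ*gcn2*, and −0.09 for WT), and its array 1 in Δ*gcn4* cells (−0.74) lay apart from the others (0.002 and 0.20).

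Among the genes of serine, *SER1* (YOR184W), the gene of phosphoserine aminotransferase, had log2 ratios of −0.35, −0.05, and −0.07 in Δ*ire1* cells, −0.27, −0.58, and −0.38 in Δ*gcn4* cells, −0.31, −0.51, and −0.14 in Δ*gcn2* cells, and −0.52, −0.93, and −0.63 in WT cells. The arrays of Δ*ire1* were all above those of WT, as were those of Δ*gcn2*, and those of Δ*gcn4* overlapped WT. The mean was −0.16 ± 0.17 in Δ*ire1* cells, against −0.70 ± 0.21 in WT cells, a difference of 0.54 ± 0.15 (adjusted p = 0.0209). The call ended without array 2 of Δ*ire1* (0.49, adjusted p = 0.0737) or array 2 of WT (0.42, adjusted p = 0.0953). *SER3* and *SER33* encode the alternative forms of 3-phosphoglycerate dehydrogenase, and neither was called in any strain. The means of *SER3* were 0.21 for Δ*ire1*, −0.14 for Δ*gcn4*, 0.34 for Δ*gcn2*, and −0.05 for WT, with single arrays as high as 0.80 in Δ*ire1* cells and 0.86 in Δ*gcn2* cells. Those of *SER33* were −0.07 for Δ*ire1*, −0.03 for Δ*gcn4*, −0.13 for Δ*gcn2*, and −0.22 for WT. Relative to the median of each array, *SER3* was called higher in Δ*gcn2* cells (0.44, adjusted p = 0.0321). *ASN1* (YPR145W), a gene of asparagine synthetase, had log2 ratios of −0.87, −0.31, and −0.41 in Δ*ire1* cells, −0.97, −0.62, and −0.49 in Δ*gcn4* cells, −0.36, −0.68, and −0.28 in Δ*gcn2* cells, and −0.84, −1.02, and −0.45 in WT cells. It was below 0 on all 12 arrays, was called lower in every strain, and no difference between strains passed the test in the fit of all 12 arrays. The plot of means by strain shows all 44 genes.

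**Figure D4:**
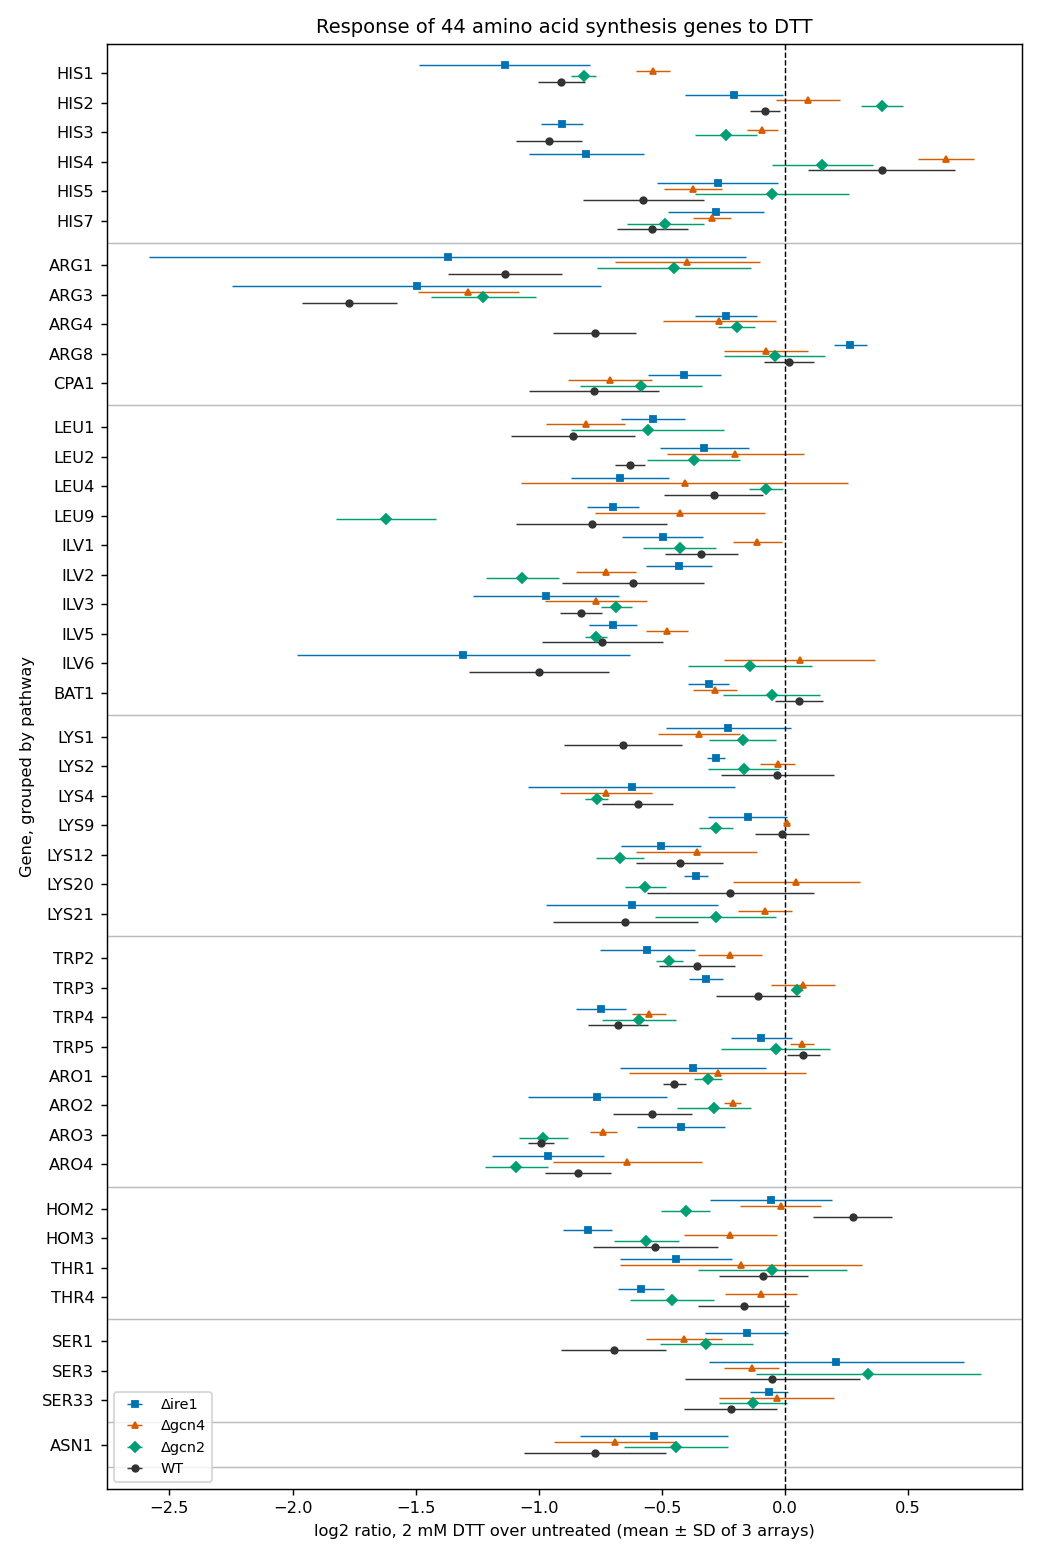
Mean log2 ratio after DTT over no treatment (x axis; bars, SD of 3 arrays) for the 44 genes (y axis, grouped by pathway), in Δ*ire1* (squares), Δ*gcn4* (triangles), Δ*gcn2* (diamonds), and WT (circles). Most means lie left of 0 in each strain (42, 37, 40, and 39 of 44), and *ARG3* has the lowest mean in WT.

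The other genes of amino acid synthesis outside the 44, 29 of 30 listed with an element, were called lower in 18 cases (62.1%, beside 35.6% of all elements) in Δ*ire1*, 12 (41.4%, beside 38.7%) in Δ*gcn4*, 14 (48.3%, beside 37.8%) in Δ*gcn2*, and 15 (51.7%, beside 39.0%) in WT. Called higher were 0 (beside 12.2%) in Δ*ire1*, 4 (13.8%, beside 15.8%) in Δ*gcn4*, 3 (10.3%, beside 25.2%) in Δ*gcn2*, and 5 (17.2%, beside 18.4%) in WT. *GLN1*, the gene of glutamine synthetase, had means of −0.69 for Δ*ire1*, −1.38 for Δ*gcn4*, −1.38 for Δ*gcn2*, and −1.56 for WT, the lowest of these 29 in WT cells. *HIS6*, the phosphoribosyl isomerase gene of histidine synthesis, was lower in every strain (−0.72 for Δ*ire1*, −0.95 for Δ*gcn4*, −1.00 for Δ*gcn2*, and −1.03 for WT). Against WT, 2 of the 29 were higher (6.90%, beside 10.9% of all elements) and 5 lower (17.2%, beside 11.3%) in Δ*ire1* cells. In Δ*gcn4* cells 0 were higher (beside 0.863%) and 0 lower (beside 1.94%), and in Δ*gcn2* cells 4 were higher (13.8%, beside 10.9%) and 1 lower (3.45%, beside 6.24%). Δ*gcn4* against Δ*gcn2* had 0 higher (beside 1.88%) and 2 lower (6.90%, beside 4.45%). The largest of these differences were in Δ*ire1*: *AAT1*, the mitochondrial aspartate aminotransferase, differed from WT by −1.07 ± 0.17 (adjusted p = 0.000528), and *GLN1* by 0.87 ± 0.20 (adjusted p = 0.00577).

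Of 12 regulators of the pathways, 4 were called higher in Δ*ire1* cells (33.3%, beside 12.2% of all elements), 5 in Δ*gcn4* cells (41.7%, beside 15.8%), 4 in Δ*gcn2* cells (33.3%, beside 25.2%), and 5 in WT cells (41.7%, beside 18.4%). Called lower were 3 in Δ*ire1* cells (25.0%, beside 35.6%), 3 in Δ*gcn4* cells (25.0%, beside 38.7%), 4 in Δ*gcn2* cells (33.3%, beside 37.8%), and 3 in WT cells (25.0%, beside 39.0%). *LYS14* was lower in every strain (−0.41 for Δ*ire1*, −0.55 for Δ*gcn4*, −0.81 for Δ*gcn2*, and −0.48 for WT), as was *BAS1*, a Myb activator of histidine and purine genes (−0.64 for Δ*ire1*, −0.77 for Δ*gcn4*, −0.95 for Δ*gcn2*, and −0.48 for WT). *LEU3* was called lower in Δ*gcn4* and Δ*gcn2* (−0.04 for Δ*ire1*, −0.47 for Δ*gcn4*, −0.60 for Δ*gcn2*, and −0.05 for WT), and its difference of −0.55 ± 0.18 between Δ*gcn2* and WT passed the test (adjusted p = 0.0458). *GLN3*, a GATA activator of nitrogen genes, was called higher in Δ*gcn4* and WT but was not called in Δ*ire1* or Δ*gcn2*. Its means were 0.10 for Δ*ire1*, 0.41 for Δ*gcn4*, 0.17 for Δ*gcn2*, and 0.55 for WT. The difference of −0.44 ± 0.13 between Δ*ire1* and WT passed the test (adjusted p = 0.0246).

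Of the 6 genes that are mutant in all strains, *HIS3* and *LEU2* are described above. In Δ*ire1* cells *TRP1* also stands in place of *IRE1*, so that the element of *TRP1* cannot tell this marker from the mutant allele there. *URA3*, of uracil synthesis, was lower in every strain (−0.55 for Δ*ire1*, −0.58 for Δ*gcn4*, −0.47 for Δ*gcn2*, and −0.69 for WT). *TRP1* (−0.03 for Δ*ire1*, −0.11 for Δ*gcn4*, −0.04 for Δ*gcn2*, and −0.20 for WT), *ADE2* (−0.09 for Δ*ire1*, −0.04 for Δ*gcn4*, 0.03 for Δ*gcn2*, and 0.07 for WT), and *CAN1* (−0.03 for Δ*ire1*, −0.06 for Δ*gcn4*, −0.02 for Δ*gcn2*, and −0.01 for WT) were called in no strain. In these 6 genes, the only differences from WT that passed the test were those of *HIS3*.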

How the data were processed

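The authors deposited log2 ratios, of DTT-treated over untreated cells, for 6024 elements on 12 two-color spotted arrays, 3 per strain, with no missing value. The sources used here do not give the normalization within arrays, and signals of the separate channels were not used. Gene symbols came from the annotation of the platform and locus tags from RefSeq. WT replicate 1 was numbered by elimination. The study states that its measurements average 3 independent experiments. Linear models with a mean for each strain were fitted to all 12 arrays as deposited with limma 3.58.1 in R 4.3.3 (lmFit, eBayes; 15.5 degrees of freedom in all), with 8 two-sided comparisons and Benjamini-Hochberg adjustment of p over the 6024 elements, at a threshold of 0.05. The methods of the study give no test of single genes. The model was checked on simulated data. The 44 genes, the other gene lists, and the tests were chosen with earlier results of these data known. All array values are given for the 3 genes of largest change among those called higher and among those called lower in each comparison, for *HIS3* and *LEU2*, and for the gene of each pathway with the smallest adjusted p between Δ*gcn4* and WT. Of the other lists, *ARG5,6*, *MUP3*, and *CAR1* did not match a symbol and were not analysed here, and 1 more gene is not reported here. The sequences of promoters were not analysed here. Same-numbered arrays were compared through their deviations from the strain means: only Δ*gcn2* and WT varied together (correlations of 0.574 to 0.661, against at most −0.198 for other numbers), and this hint from the data, not a label, is the basis of the paired fit. The alternatives were centering, centering and scaling, a replicate block, a fit of the compared strains alone, array weights, and leaving out each array.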

Additional observations from a re-analysis of the deposited data

Results flagged for a closer look

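These are the differences between strains in the response to DTT that passed the test over all elements, 15 among the 44 genes. In Δ*ire1* minus WT, the difference in log2 ratio was −1.20 for *HIS4*, −0.42 for *THR4*, 0.57 for *ARO3*, 0.54 for *SER1*, and 0.53 for *ARG4*. In Δ*gcn4* minus WT it was 1.06 for *ILV6* and 0.87 for *HIS3*. In Δ*gcn2* minus WT it was −0.84 for *LEU9*, −0.68 for *HOM2*, 0.86 for *ILV6*, 0.72 for *HIS3*, 0.58 for *ARG4*, and 0.48 for *HIS2*. In Δ*gcn4* minus Δ*gcn2* it was 1.20 for *LEU9* and 0.61 for *LYS20*.

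Of these 15, *HIS4* and *ARO3* in Δ*ire1*, *HIS3* in Δ*gcn4* and in Δ*gcn2*, *HOM2* in Δ*gcn2*, and *LEU9* between Δ*gcn4* and Δ*gcn2* kept their call under every setting tried and without any 1 array. For *HIS4*, the means of Δ*ire1* and WT were each called, and in opposite directions, as were those of Δ*gcn2* and WT for *HOM2*. Of these 4 single means, the WT mean of *HIS4* lost its call without array 3 of WT, that of *HOM2* without array 1 or 2 of WT or with WT alone in the fit, and the Δ*gcn2* mean of *HOM2* with centered and scaled arrays. With 3 arrays for each strain, single arrays could not be tested as outliers.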

How the results depend on the processing

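The counts of the 44 genes called were recomputed with each array centered on its median, with arrays centered and scaled to one spread, with the replicate number as a block, with only the strains compared in the fit, with array weights, and without each array in turn, and for Δ*gcn2* against WT with a paired fit added after the data were seen. No call of a gene changed its direction under any of these. Called lower, the counts stayed within 1.5 times of 33 in Δ*ire1*, 27 in Δ*gcn2*, and 29 in WT under all settings, and of 20 in Δ*gcn4* except with centering (12) and centering with scaling (13). Called higher in Δ*gcn4*, there was 1 gene as deposited and 4 with either of these. Called higher in Δ*gcn2* were 2 genes, rather than 1, with centering or with Δ*gcn2* alone in the fit. Called higher in Δ*ire1* were 0 rather than 1 with Δ*ire1* alone and 0 to 0 without any 1 of its arrays, and called higher in WT was 1 rather than 2 with WT alone and 1 to 1 without any 1 of its arrays. For Δ*ire1* minus WT, 2 genes were lower, 1 with centering or with only these strains, and 1 to 5 without 1 array: 5 without array 3 of Δ*ire1*, and 1 without array 1 or 2 of Δ*ire1* or array 1 or 2 of WT. The 3 genes higher became 1 without array 2 of WT, with a range of 1 to 4 without 1 array. For Δ*gcn4* minus WT, the 2 genes higher became 1 with scaling and 1 to 2 without 1 array (1 without array 2 or 3 of Δ*gcn4* or array 1 or 3 of WT). For Δ*gcn2* minus WT, the 4 genes higher became 2 with scaling, 8 with only these strains, and 1 to 3 without 1 array (2 without array 1 and 1 without array 3 of Δ*gcn2*), and the 2 genes lower became 1 to 3 (1 without array 3 of Δ*gcn2* or array 1 of WT). For Δ*gcn4* minus Δ*gcn2*, the 2 genes higher became 1 with scaling and 1 to 2 without 1 array (1 without array 2 of Δ*gcn4* or any array of Δ*gcn2*). The cause of these moves was not tested, beyond the smaller number of arrays in the fits that leave some out.

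With the replicate number as a block for all 4 strains (replicate block), the 44 genes gave 6 calls rather than 5 for Δ*ire1* minus WT, 3 rather than 2 for Δ*gcn4*, 8 rather than 6 for Δ*gcn2*, and 2 as before for Δ*gcn4* minus Δ*gcn2*, and every call of the model without it was kept. The paired fit of Δ*gcn2* and WT alone gave 15 higher and 9 lower. Strain by strain, 22 of 34 calls in Δ*ire1*, 13 of 21 in Δ*gcn4*, 20 of 28 in Δ*gcn2*, and 26 of 31 in WT were kept under all settings. The number of arrays, 3 for each strain, limits the precision, and signals over background were not examined.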

Other observations

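Of 17 permeases of amino acids with an element (18 listed), 9 were called lower in Δ*ire1* cells (52.9%, beside 35.6% of all elements), 6 in Δ*gcn4* cells (35.3%, beside 38.7%), 10 in Δ*gcn2* cells (58.8%, beside 37.8%), and 7 in WT cells (41.2%, beside 39.0%). Called higher was 1 in Δ*ire1* cells (5.88%, beside 12.2%), 2 in Δ*gcn4* cells (11.8%, beside 15.8%), 3 in Δ*gcn2* cells (17.6%, beside 25.2%), and 3 in WT cells (17.6%, beside 18.4%). *PUT4*, the proline permease, had mean log2 ratios of −0.53 for Δ*ire1*, −1.53 for Δ*gcn4*, −2.06 for Δ*gcn2*, and −1.74 for WT, and was higher in Δ*ire1* than in WT by a difference of 1.20 ± 0.30 (adjusted p = 0.00938). Its arrays in Δ*ire1* were split (−1.322, −0.178, and −0.1), with array 1 close to those of WT (−1.885, −1.865, and −1.458). *SSY1*, a sensor of external amino acids, was called higher in every strain (0.37 for Δ*ire1*, 0.93 for Δ*gcn4*, 1.07 for Δ*gcn2*, and 1.03 for WT), and its difference between Δ*ire1* and WT was −0.66 ± 0.14 (adjusted p = 0.0047). *MUP1*, a methionine permease, was lower in every strain (−1.02 for Δ*ire1*, −0.81 for Δ*gcn4*, −0.52 for Δ*gcn2*, and −1.40 for WT), and it fell less in Δ*gcn2* than in WT, by 0.88 ± 0.18 (adjusted p = 0.00598).

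Of 12 genes of amino acid breakdown (13 listed), 3 were called lower in each of Δ*ire1*, Δ*gcn2*, and WT (25.0%, beside 35.6%, 37.8%, and 39.0% of all elements) and 4 in Δ*gcn4* cells (33.3%, beside 38.7%). Called higher were 4 in each of Δ*ire1*, Δ*gcn2*, and WT (33.3%, beside 12.2%, 25.2%, and 18.4% of all elements) and 2 in Δ*gcn4* cells (16.7%, beside 15.8%). *CHA1*, the serine and threonine deaminase, had mean log2 ratios of −0.50 for Δ*ire1*, −1.41 for Δ*gcn4*, −2.33 for Δ*gcn2*, and −1.82 for WT, and *PUT1*, the proline oxidase, of 0.32 for Δ*ire1*, −1.06 for Δ*gcn4*, −0.10 for Δ*gcn2*, and −0.99 for WT. Both were higher in Δ*ire1* than in WT, *CHA1* by a difference of 1.32 ± 0.31 (adjusted p = 0.00757) and *PUT1* by 1.31 ± 0.17 (adjusted p = 7.58e-05). *PUT1* was also higher in Δ*gcn2* than in WT, by 0.88 ± 0.17 (adjusted p = 0.00349).

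Over the 44 genes, Pearson's r between the means of 2 strains was lowest for Δ*ire1* and Δ*gcn4* (0.362, against 0.545 over all elements) and highest for Δ*gcn4* and WT (0.755, against 0.869). It was 0.477 for Δ*ire1* and Δ*gcn2* (0.571), 0.687 for Δ*gcn4* and Δ*gcn2* (0.882), 0.667 for Δ*ire1* and WT (0.630), and 0.617 for Δ*gcn2* and WT (0.819). These correlations are across genes, which are not independent replicates, and are given as a description.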
